A study of Mus musculus with 3 samples.

Results

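Vesicle coat, sorting and fusion genes were described in 3 libraries of mouse oocytes of the ICR strain. Members were the genes of the deposited table whose symbol begins with Vps, Snx or Stx and a digit, with Sec and 2 digits, with Exoc or Trappc, or with Cop and the letter a, b, e, g or z. The rule took 67 of the 6104 listed genes, with 87 of the 9126 rows, and each gene was represented by its row with the highest mean TPM. The groups were young, aged and aged-sec, the last of which was aged oocytes kept during maturation with hUC-MSC-sec, the products released by mesenchymal stem cells of human umbilical cord (the secretome). In all 3 groups oocytes at the germinal vesicle stage were taken from antral follicles and brought to metaphase II in M16 medium for 16 to 18 h, with the secretome mixed 1:1 where it was used. For each library 20 oocytes of 4 mice were pooled. The ages of the mice were not given in the sources used here. Groups follow the sample titles, because the treatment label names the secretome on each of the 3 samples.

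Proteins for export enter the endoplasmic reticulum through the translocon and leave it in vesicles coated with COPII, while COPI vesicles return material from the Golgi. Tethering complexes such as TRAPP, the exocyst, HOPS and GARP hold an arriving vesicle at its target, and SNARE proteins drive the fusion of the membranes. In endosomes, ESCRT complexes sort proteins for degradation, and retromer and the sorting nexins send others back to the Golgi or the cell surface. A metaphase II oocyte makes little new RNA and relies on stored mRNAs, and it holds cortical granules that are released by exocytosis at fertilization.

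The way the table was made limits every comparison. In every row the aged value was 1.2 times the young value or more, and none held a zero. A gene with less RNA in the aged library could therefore not enter, which sets the sign of the age comparison in advance. Because rows were listed for a high aged value, a chance high aged value would also lower the ratio of aged-sec over aged. In the same way, a chance low young value would help a row to be listed and raise the ratio of aged-sec over young. The comparisons share the aged or the young library. With 1 library per group there is no replicate error, no test and no p-value, and every difference is one between libraries. Higher or lower below refers to these TPM values alone. A higher mRNA share cannot be told apart from less of the other RNA in the pool, and fewer oocytes contributing cannot be told apart from less RNA per oocyte. Of 143 annotated mouse genes that the rule would take, 67 (46.9%) had a listed transcript, against 27.4% of 21900 protein-coding genes. The other genes of these families were not analysed here.

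The members covered a range from 0.01 to 707 TPM. Trappc2 was highest in all 3 libraries, at 486, 625 and 707 TPM in the young, aged and aged-sec libraries, and held place 60 among all listed genes by mean TPM. It encodes a core subunit of the TRAPP tether. It was followed by Sec11a (place 82), Snx6 (place 169), Copb1 (place 176) and Sec62 (place 207). Together these 5 genes held 68.8% of the members' summed TPM in the young, 66.96% in the aged and 72.2% in the aged-sec library. At the other end, 16 members had a mean under 1 TPM, where values in steps of 0.01 TPM make a ratio coarse. The median member stood at 3.55, 5.04 and 4.20 TPM in the young, aged and aged-sec libraries, against 1.5, 2.79 and 2.17 TPM for all listed genes. Summed over members the level was 1771, 2470 and 2412 TPM. That was 0.828%, 0.826% and 0.809% of the summed TPM of all listed genes, so the members' part of the listed RNA was nearly the same in the 3 libraries.

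**Figure D1:**
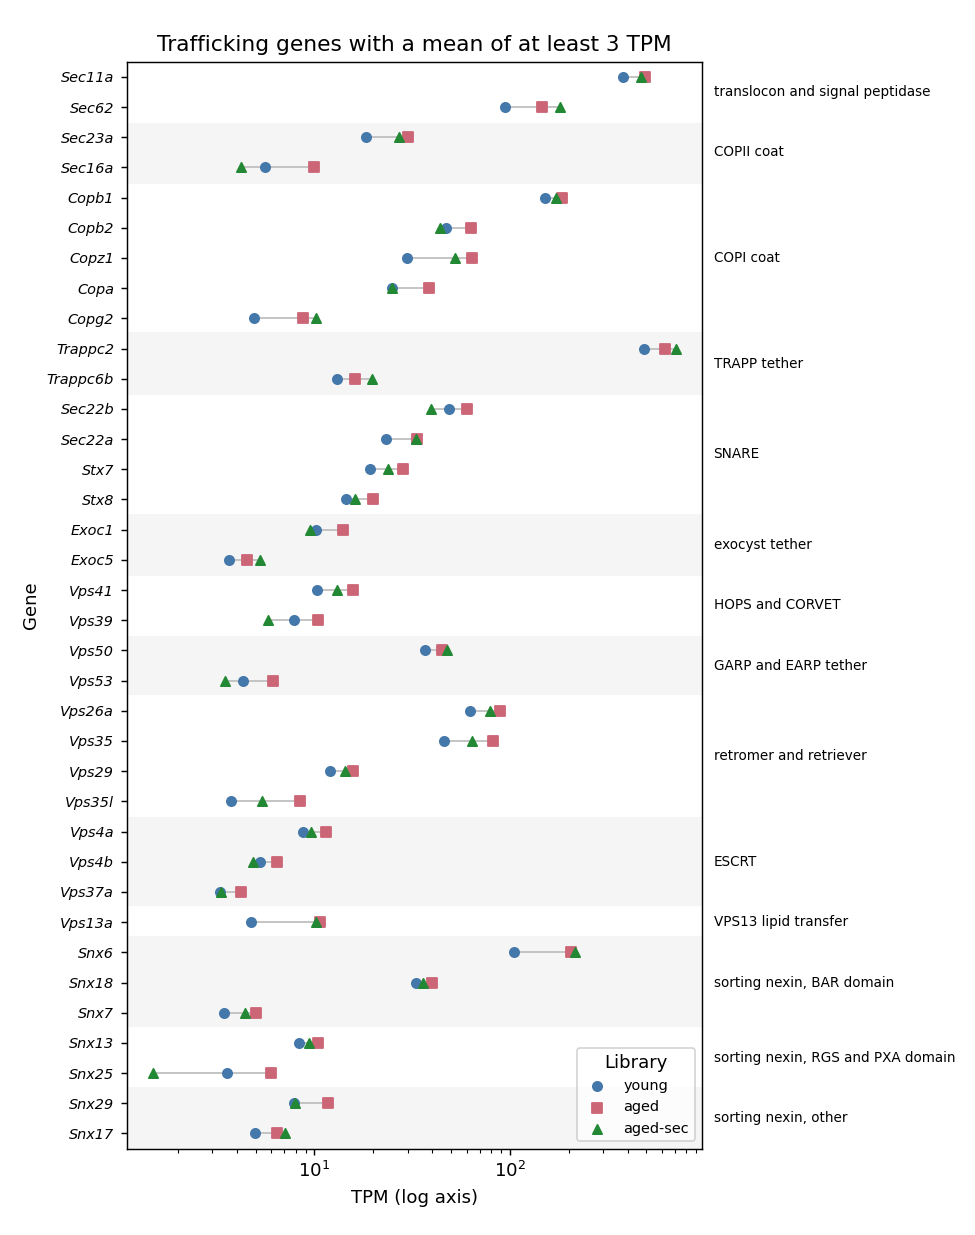
TPM (log axis) of the 36 members with a mean of at least 3 TPM, grouped by role, with 1 point for each library (circle young, square aged, triangle aged-sec) and a grey line over their range. Aged squares lie right of young circles for every gene, as the table allows, and the aged-sec triangle lies beyond the aged square for Trappc2, Sec62 and Snx6 but at or left of the young circle for Copb2, Sec22b and Sec16a.

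The age comparison shows the size of the excess of the listed members in aged oocytes. Their median aged over young ratio was 1.5, with an interquartile range of 1.31 to 1.87, and the median over all listed genes was 1.65, with an interquartile range of 1.37 to 2.24. On the log2 scale with 0.5 TPM added, the medians were 0.44 and 0.47. A size rule was used to single out large ratios: at least 2-fold with 0.5 TPM added, and 10 TPM or more on the higher side. It was met by 2 of the 27 members with enough TPM, against 15.9% of all listed genes with enough TPM. Copz1, the small zeta subunit of the COPI coat, stood at 29.9 TPM in the young and 63.6 TPM in the aged library. Vps13a, a bridge-like lipid transfer protein, stood at 4.76 and 10.7 TPM. Just outside the rule were Vps35l, with a log2 ratio of 1.08 like Copz1 but 8.44 TPM in aged oocytes, and Snx6, with a log2 ratio of 0.96. Snx18 lay nearest to the table's limit, at 33.2 and 39.8 TPM with a ratio of 1.2. Listed rows were also scaled to equal medians or upper quartiles, which moved the median log2 age ratio of all genes by −0.60 and −0.50. The medians then became −0.25 and −0.12 for members and −0.13 and −0.034 for all listed genes. No member met the rule, and the share of all listed genes that did is not given for the scalings. The scalings set level rows that were listed for an aged value high against the young one. Lower age ratios under them were therefore fixed in advance.

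**Figure D2:**
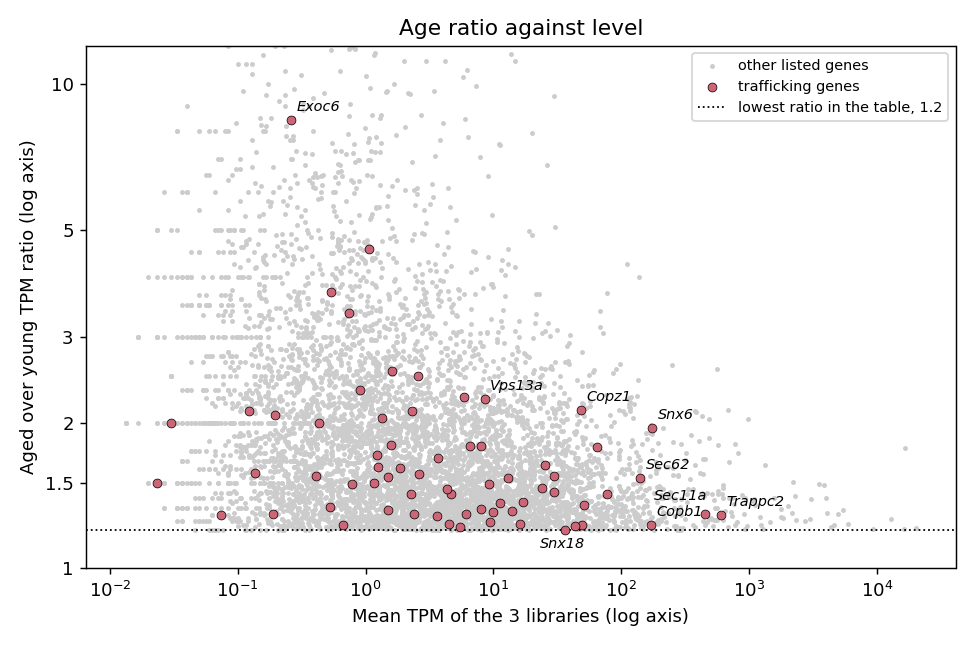
Aged over young TPM ratio (log axis) against the mean TPM of the 3 libraries (log axis) for the 67 members (red) and the other listed genes (grey), of which 71 with ratios above 12 lie outside the plot. The members lie within the cloud of the other genes above the dotted lower limit of 1.2, the highest ratio being that of Exoc6 at 0.07 TPM in young oocytes.

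Aged-sec and aged oocytes were compared to see how the members stood after maturation with the secretome. Of the 67 members, 49 were lower and 18 higher in the aged-sec library, or 73.1% and 26.9%. Over all listed genes the shares were 72.5% lower and 26.6% higher. The median log2 ratio was −0.18 for members and −0.20 for all listed genes. The members as a group therefore stood at the background of the table. Under the size rule 1 of 28 members with enough TPM was lower, against 2.18% of all listed genes, and 0 were higher, against 0.168%. This member was Sec16a, a scaffold of the sites where COPII vesicles form, at 5.59, 10 and 4.20 TPM in the young, aged and aged-sec libraries. Its aged value equals the minimum of the rule. Snx25 had a larger log2 ratio of −1.71 but only 5.99 TPM in aged oocytes.

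The side of aged on which a member stood depended on the scaling. Scaling listed rows to equal medians moved the median log2 ratio of aged-sec over aged of all genes by 0.24, and scaling to equal upper quartiles by 0.17. Both scalings raise the ratio of aged-sec over aged of every gene. The 18 members above aged therefore had to stay above, here and in the roles below. Of the 49 below, 29 stayed below under both and 20 were above under at least 1 of them. Over all listed genes 72.5% were below aged as deposited, 44.2% with equal medians and 52.8% with equal upper quartiles. Counts by role below are to be read beside these shares. Among the members with a mean of at least 10 TPM, 16 of 21 were below aged, against 73.5% of all listed genes at that level. Of the 5 members at 100 TPM or more, 3 were above, against 37.9% of the 285 listed genes at that level. They were Trappc2, Snx6 and Sec62.

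**Figure D3:**
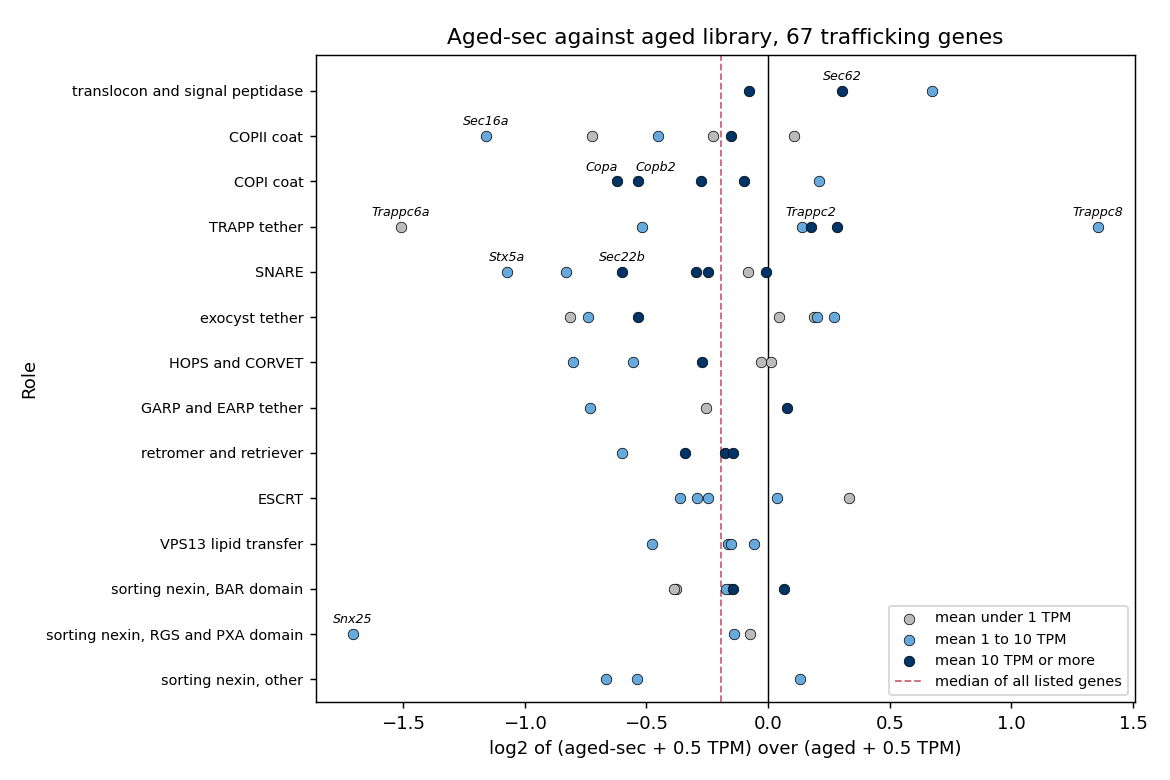
Log2 ratio of aged-sec over aged, with 0.5 TPM added, for each of the 67 members in rows by role; colour gives the mean TPM and the dashed line is the median of all listed genes, −0.20. Snx25, Trappc6a, Sec16a and Stx5a lie farthest to the left and Trappc8 farthest to the right, and the dark points of 10 TPM or more lie within 0.5 of 0 except Copa, Sec22b, Copb2 and Exoc1.

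Against young oocytes, the aged-sec library was higher for 49 members, lower for 16 and equal for 2. These counts are not free of the listing, which favoured low young values. Over all listed genes 75.6% were higher and 22.1% lower. The size rule was met by 2 of 23 members with enough TPM, against 14.2% of all listed genes, and 0 were lower, against 0.311%. The 2 higher members were Snx6, at 105 TPM in the young and 215 TPM in the aged-sec library, and Vps13a, at 4.76 and 10.2 TPM. Copg2 lay just outside, with a log2 ratio of 0.99. Equal medians moved the median of all genes by −0.37, and equal upper quartiles by −0.34. Members above young were then 19 and 24 of 67, against 40.8% and 44.1% of all listed genes. In both scalings 19 members stayed above young and none met the rule. The share of all listed genes that met the rule is not given for the scalings.

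At the entrance of the secretory pathway, Sec11a and Sec62 were among the most abundant members. Sec11a encodes a catalytic subunit of the signal peptidase, which removes the signal sequence of a newly made secretory protein. It stood at 381, 493 and 467 TPM in the young, aged and aged-sec libraries. Sec62, a translocon partner that helps proteins enter the endoplasmic reticulum after their synthesis, stood at 94.7, 146 and 180 TPM. The aged-sec library was thus highest for Sec62, with an aged-sec over aged ratio of 1.24, while for Sec11a it lay between the other libraries. Sec11c, the alternative catalytic subunit of the signal peptidase, was represented by a predicted variant at 0.78, 1.40 and 2.53 TPM. Sec62 and Sec11c were above aged under both scalings too, which raise this ratio for every gene. Sec11a was below aged as deposited, with a ratio of 0.95, and above aged under both scalings.

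The COPII coat had 6 members, of which 5 were below aged in the aged-sec library, and 4 under each of the scalings. Over all listed genes the shares below were 72.5%, 44.2% with equal medians and 52.8% with equal upper quartiles. Sec23a, an inner coat subunit that stimulates the GTPase Sar1, was the most abundant at 18.3, 30.0 and 26.9 TPM in the young, aged and aged-sec libraries. Its paralogue Sec23b stood far lower, at 0.97, 1.66 and 1.08 TPM. Listed variants of the cargo-binding subunits Sec24a (0.26, 0.97 and 0.39 TPM) and Sec24d (0.09, 0.19 and 0.09 TPM) stayed under 1 TPM in all 3 libraries. Sec31b, an outer coat subunit, stood at 0.01, 0.02 and 0.06 TPM, near the smallest step of the table. Levels of the listed coat subunits therefore differed widely, although an unlisted variant of the same gene could hold more.

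Among COPI coat subunits the order of levels was Copb1, then Copb2 and Copz1, then Copa, then Copg2 by mean TPM. Copb1, the beta subunit, stood at 151, 185 and 173 TPM in the young, aged and aged-sec libraries. Copb2, the beta-prime subunit, stood at 47.0, 63.6 and 43.7 TPM, and Copa, the alpha subunit, at 24.9, 38.7 and 24.95 TPM. For Copa and Copb2, which form an outer layer of the coat together, the aged-sec library lay at or below the young one, with aged-sec over young ratios of 1.00 and 0.93. Copz1 stood at 52.5 TPM in aged-sec oocytes, nearer to the aged than to the young value. Copg2, 1 of the paralogues of the gamma subunit, was highest in aged-sec oocytes, at 4.88, 8.75 and 10.2 TPM. In all, 4 of 5 subunits were below aged, and with equal medians or upper quartiles 2 and 3 of 5 were. Over all listed genes the shares were 72.5%, 44.2% and 52.8%. Copa and Copb2 were below in each case.

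Of the TRAPP subunits, 4 of 6 were above aged in the aged-sec library, as deposited and under both scalings. Over all listed genes 26.6% were above as deposited, 55.8% with equal medians and 47.2% with equal upper quartiles. Trappc2, described first, had an aged-sec over aged ratio of 1.13. Trappc6b, an alternative core subunit, stood at 13.02, 16.1 and 19.7 TPM in the young, aged and aged-sec libraries. Its paralogue Trappc6a, a predicted variant, stood at 0.46, 1.55 and 0.22 TPM, so the aged-sec value was the lowest. Trappc8, Trappc11 and Trappc13 belong to the larger TRAPPIII form of the complex. A predicted variant of Trappc8 stood at 1.15, 1.49 and 4.59 TPM, the largest aged-sec over aged ratio of any member, 3.08. Its accession did not match the annotation used. Trappc11 stood at 1.54, 3.25 and 2.12 TPM. Trappc13 stood at 1.23, 3.07 and 3.43 TPM in its most abundant row, but at 5.22, 9.32 and 7.93 TPM when its 4 rows were summed, which turns its aged-sec over aged ratio from 1.12 to 0.85. The 4 of 6 count therefore becomes 3 of 6 with summed rows.

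Of the members grouped with the SNAREs, 7 of 7 were below aged in the aged-sec library. With equal medians 3 of 7 were below, and with equal upper quartiles 5 of 7. Sec22a was among the 7 with a ratio of 0.99, nearly a tie. Over all listed genes the shares below aged were 72.5%, 44.2% and 52.8%. Of 18 other listed SNAREs and cofactors 3 were above aged, among them Bet1, a SNARE of the early secretory pathway chosen after its values were seen, at 33.3, 43.9 and 49.99 TPM. Sec22b, a SNARE of traffic between the endoplasmic reticulum and Golgi, stood at 48.9, 60.0 and 39.4 TPM in the young, aged and aged-sec libraries. Its aged-sec value was the lowest of the 3 libraries. Sec22a, a related protein of the endoplasmic reticulum, was listed through predicted variants, and the first of them stood at 23.2, 33.4 and 33.2 TPM, with aged and aged-sec nearly equal. The syntaxins of late endosomes, Stx7 (19.3, 28.3 and 23.8 TPM) and Stx8 (14.6, 20.0 and 16.2 TPM), had aged-sec values between the young and the aged ones. Stx5a, the Golgi syntaxin, stood at 1.60, 2.11 and 0.74 TPM, Stx18 of the endoplasmic reticulum at 1.01, 2.58 and 1.23 TPM, and Stx6 of the trans-Golgi network at 0.17, 0.22 and 0.18 TPM.

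The exocyst tethers secretory vesicles at the plasma membrane, and 7 of its subunits were listed, most of them at low levels. Exoc1 was the only listed subunit with a mean above 10 TPM, at 10.2, 13.97 and 9.5 TPM in the young, aged and aged-sec libraries. Exoc5 followed at 3.65, 4.50 and 5.25 TPM. The 2 most abundant subunits thus stood on opposite sides of aged, with aged-sec over aged ratios of 0.68 and 1.17. A predicted Exoc4 variant stood at 1.00, 1.54 and 1.96 TPM and a predicted Exoc3 variant at 0.41, 1.87 and 0.92 TPM. Exoc2 (0.53, 0.65 and 0.81 TPM), Exoc7 (0.29, 0.45 and 0.48 TPM) and a predicted Exoc6 variant (0.07, 0.59 and 0.12 TPM) had aged values under 1 TPM. Of the 7 subunits, 4 were above and 3 below aged, as deposited and under both scalings. Above aged were 26.6% of all listed genes as deposited, 55.8% with equal medians and 47.2% with equal upper quartiles.

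HOPS and CORVET tether late and early endosomes. Vps41, a HOPS subunit, stood at 10.3, 15.8 and 12.99 TPM in the young, aged and aged-sec libraries. Vps39, which is also specific to HOPS, stood at 7.89, 10.4 and 5.77 TPM, with the aged-sec library lowest. Vps8, specific to CORVET, stood at 1.55, 2.50 and 1.54 TPM. Of the core shared by both complexes, the listed row of Vps11 stood at 0.59, 0.88 and 0.89 TPM and that of Vps33a at 0.02, 0.03 and 0.02 TPM. Of these 5 members 4 were below aged, and 3 and 4 of 5 under equal medians and equal upper quartiles. The shares of all listed genes were 72.5%, 44.2% and 52.8%.

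GARP and EARP tether endosome-derived vesicles and share most subunits. Vps50, which makes the complex EARP, stood at 36.8, 45.02 and 47.5 TPM in the young, aged and aged-sec libraries. Vps53, a shared subunit, stood at 4.31, 6.13 and 3.49 TPM, and Vps54, which makes the complex GARP, at 0.53, 1.24 and 0.96 TPM. Vps50 was the most abundant and the only 1 of the 3 above aged in the aged-sec library, as deposited and under both scalings. Because the scalings raise this ratio for every gene, Vps50 had to stay above. Over all listed genes 26.6% were above aged as deposited, 55.8% with equal medians and 47.2% with equal upper quartiles.

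All 3 core subunits of retromer had a listed gene. Vps26a stood at 62.7, 89.2 and 78.9 TPM in the young, aged and aged-sec libraries, Vps35, the scaffold, at 46.0, 81.7 and 64.3 TPM, and Vps29 at 12.02, 15.8 and 14.3 TPM. Each of the 3 had its aged-sec value between young and aged. Their aged over young ratios were 1.42, 1.78 and 1.31. Vps35l, the scaffold of the related retriever complex, stood at 3.74, 8.44 and 5.40 TPM. As deposited, 4 of 4 were below aged, against 72.5% of all listed genes, and 4 of 4 were above young, against 75.6%. The share of all listed genes that were both, and so lay between young and aged, is lower and is not given here. With equal medians 1 of 4 and with equal upper quartiles 2 of 4 were below aged, against 44.2% and 52.8% of all listed genes. Under both scalings 4 of 4 were below young, against 59.0% and 55.9% of all listed genes.

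Sorting nexins with a BAR domain bend membranes, and some of them work with retromer. Snx6, a retromer partner, stood at 105, 205 and 215 TPM in the young, aged and aged-sec libraries. As deposited, its aged and aged-sec values lay close together and apart from young. With equal medians and equal upper quartiles its log2 ratio of aged over young was 0.01 and 0.17. The log2 ratio of aged-sec over aged was then 0.43 and 0.32, so aged lay nearer to young than to aged-sec. Both annotated mRNAs of Snx6 were listed, and the second, at 7.06, 14.8 and 15.9 TPM, had nearly the same ratios as deposited. The related Snx1 stood at 0.50, 0.67 and 0.40 TPM. Snx18, which acts in endocytosis, stood at 33.2, 39.8 and 36.0 TPM. For its relative Snx9 a predicted row stood at 0.13, 0.27 and 0.19 TPM. Snx7, which acts in autophagy, stood at 3.45, 5.04 and 4.41 TPM. For Snx30 a further copy of a curated transcript stood at 0.14, 0.22 and 0.05 TPM. Of these 6 genes 5 were below aged, and 3 of 6 under each of the scalings. The shares of all listed genes were 72.5%, 44.2% with equal medians and 52.8% with equal upper quartiles.

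Among the other sorting nexins, Snx25 differed most between aged and aged-sec. It stood at 3.55, 5.99 and 1.49 TPM in the young, aged and aged-sec libraries, the lowest in the treated library, with an aged-sec over aged ratio of 0.25. Snx13, which shares its RGS and PXA domains, stood at 8.37, 10.4 and 9.43 TPM, and Snx19 of the same group at 0.07, 0.09 and 0.06 TPM. Snx29 was listed through a predicted variant at 7.84, 11.7 and 7.93 TPM and a curated one at 0.05, 0.14 and 0.33 TPM. With curated rows only, its log2 ratio of aged-sec over aged became 0.38 in place of −0.54. Of the cargo adaptors, Snx17, which works with retriever, stood at 4.95, 6.41 and 7.06 TPM. Snx27, which works with retromer, was listed through a predicted variant at 1.08, 1.75 and 0.92 TPM. These adaptors lay on opposite sides of aged, as deposited and under both scalings.

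The 5 listed ESCRT genes with Vps names had means under 10 TPM. The ATPases that take the complex apart, Vps4a and Vps4b, stood at 8.75 and 5.28 TPM in the young, 11.4 and 6.41 TPM in the aged, and 9.55 and 4.87 TPM in the aged-sec library. Vps37a, a subunit of ESCRT-I, stood at 3.27, 4.19 and 3.33 TPM and Vps37b at 1.75, 2.49 and 2.57 TPM. A predicted variant of Vps25, a subunit of ESCRT-II, stood at 0.21, 0.42 and 0.66 TPM. Of these 5 genes 3 were below aged, 1 with equal medians and 3 with equal upper quartiles. The shares of all listed genes were 72.5%, 44.2% and 52.8%. Aged over young ratios of Vps4a and Vps4b, 1.30 and 1.21, were near the lower limit of the table.

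The VPS13 proteins carry lipids between membranes, and all 4 annotated genes were listed. Vps13a was the most abundant at 4.76, 10.7 and 10.2 TPM in the young, aged and aged-sec libraries. As deposited, its aged and aged-sec values were nearly equal and both stood apart from young. With equal medians and equal upper quartiles its log2 ratio was 0.20 and 0.35 for aged over young, and 0.49 and 0.53 for aged-sec over young. Vps13b stood at 1.98, 3.10 and 2.71 TPM, Vps13d at 0.83, 1.70 and 1.48 TPM and Vps13c at 1.02, 1.53 and 0.96 TPM. All 4 were below aged in the aged-sec library as deposited, but 1 of 4 under each of the scalings, which was Vps13c. The shares of all listed genes were 72.5%, 44.2% with equal medians and 52.8% with equal upper quartiles.

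Rows are transcripts, so a listed row need not stand for its gene. The row used was a curated transcript for 46 members, a predicted one for 20 and a further copy for 1. The annotation gives 14 members a single mRNA, and for these the row is the whole annotated gene: Copb1, Copb2, Copg2, Sec31b, Vps4a, Vps4b, Vps37b, Sec22b, Trappc11, Vps13b, Vps35, Snx18, Snx1 and Sec11a. Their aged over young ratios ran from 1.2 to 2.11. Of these 14, 11 were below and 3 above aged in the aged-sec library, and 10 were above young. Over all listed genes 72.5% were below aged, 26.6% above aged and 75.6% above young. Neither Copz1, Vps13a, Sec16a nor Snx6, which met the size rule in some comparison, is among these 14. For Snx6, however, every annotated mRNA was listed, and its rows summed to 112, 220 and 231 TPM in the young, aged and aged-sec libraries.

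For 15 members the table held several rows, 35 in all, and for 7 of these genes the rows lay on both sides of aged in the aged-sec library. Sec16a was 1 of them. Its second row, also predicted, stood at 1.40, 2.91 and 3.04 TPM in the young, aged and aged-sec libraries, and the sum of both rows at 6.99, 12.9 and 7.24 TPM did not meet the size rule against aged. The 3 rows of Vps13a summed to 12.4, 22.6 and 22.2 TPM, a ratio of aged over young of 1.83 in place of 2.24, so that its sum also missed the rule. For Sec22a the second predicted row stood at 23.2, 28.5 and 25.4 TPM, close to the first in young oocytes, and the curated row at 0.12, 0.36 and 0.26 TPM. Minor rows of Vps26a and Vps50 had aged-sec over aged ratios of 0.19 and 0.34 at about 1 TPM or less in aged oocytes, while the main rows, with 98.8% and 99.3% of the gene's listed TPM, had 0.88 and 1.05.

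**Figure D4:**
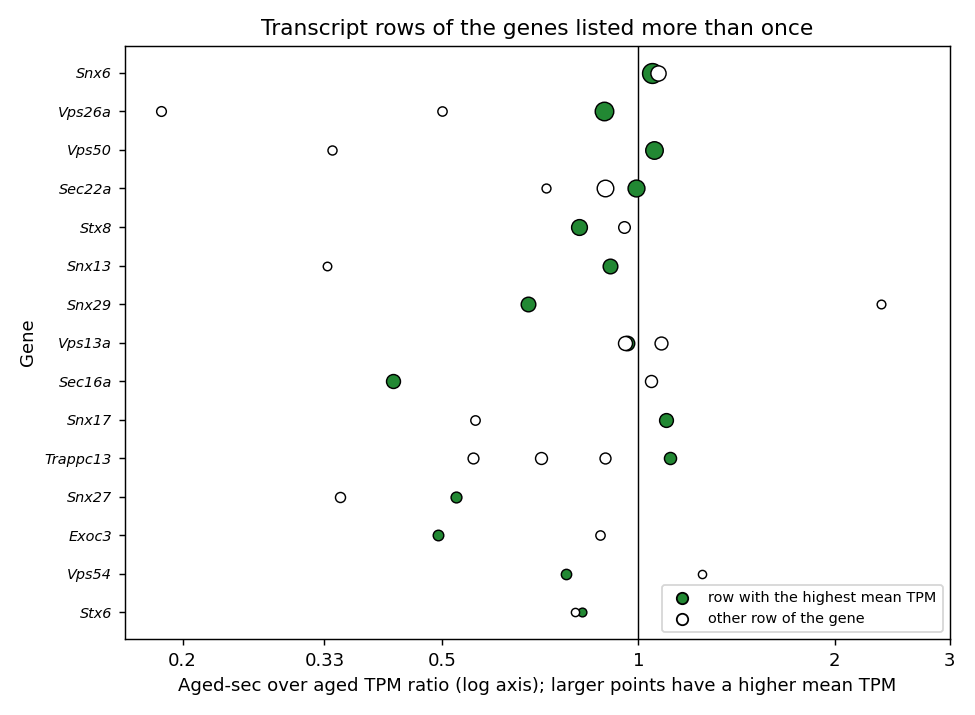
Aged-sec over aged TPM ratio (log axis) of each of the 35 rows of the 15 genes listed more than once, with the row of highest mean TPM filled and larger points for a higher mean. Rows of the same gene lie on both sides of 1 for 7 genes, among them Sec16a (0.42 and 1.04) and Trappc13 (0.56 to 1.12).

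Other genes of the same pathways were taken from a list of 145 names, of which 69 were in the table. In the age comparison 2 of 24 with enough TPM met the size rule, against 15.9% of all listed genes. They were Rint1, a tether of the endoplasmic reticulum, at 60.9, 133 and 149.9 TPM in the young, aged and aged-sec libraries, and Washc4, a subunit of the WASH complex that works with retromer, at 31.4, 67.8 and 70.7 TPM. In both, aged-sec was the highest library, and both, of 18 with enough TPM, met the rule against young as well, where 14.2% of all listed genes did. For Rint1 and Washc4 the row used was a predicted variant, and their ratios under the scalings are not given here. Between aged-sec and aged, 1 of 24 was lower under the rule and 0 higher, against 2.18% and 0.168% of all listed genes. The lower gene was Tmed5, a cargo receptor of early secretory vesicles, at 6.49, 11.2 and 2.73 TPM. Of the 69 genes, 50 were below and 19 above aged, against 72.5% and 26.6% of all listed genes, with a median log2 ratio of −0.25. The most abundant besides Rint1 were Ap3m1, an adaptor subunit, at 46.0, 72.1 and 66.04 TPM, and Tsg101 of ESCRT-I at 50.9, 63.4 and 67.1 TPM.

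The listed rows held 22.9% of all TPM in the young, 32.5% in the aged and 32.1% in the aged-sec library. Of 20 oocyte marker names, which include H1f8 and H1foo for the same gene, 6 were listed. Their summed level was 3654, 5373 and 4949 TPM, of which Rfpl4 held most. Of 12 cumulus and granulosa markers 2 were listed, summing to 2.09, 3.58 and 2.36 TPM, with Fshr at 0.03, 0.55 and 0.22 TPM. Theca and stroma markers (4 of 7 listed) summed to 2.38, 4.42 and 3.38 TPM, endothelium and blood markers (2 of 6) to 2.52, 5.42 and 3.53 TPM, and 0 of 6 leukocyte markers was listed. Each sum of listed markers was highest in the aged library. It had to be higher there than in the young library, because every listed row was. The part of these markers in the members' values was not tested.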

How the data were processed

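RNA of 3 oocyte pools was measured, 1 library per group. The authors deposited TPM (transcript levels per length, set to sum to 1000000 in a library) of RefSeq transcripts and 2 ratio columns (aged to young, aged-sec to aged), per the file headers. The software and reference behind these values were not given in the sources used here, and coordinates are left out. The deposited ratios equal the TPM quotients within a relative difference of 6.64e-07, and the lowest aged over young ratio is 1.2.

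For each symbol the row with the highest mean TPM was used. Log2 ratios had a pseudocount of 0.5 TPM, and ratios named without log2 had none. The size rule asked for a log2 ratio of 1 or more in either direction and 10 TPM in the higher library. Its calculation was tested on simulated ratios of known size. Members named first were those under the size rule, those with a mean of at least 20 TPM and the top 2 of each role; the others are given by value or range. Related genes named were those under the size rule and the 3 with the highest mean TPM. Accessions of 66 of 67 members matched RefSeq of assembly GRCm38.p6, used for names and numbers of mRNAs. The members and lists were chosen with earlier results of these data known. There were 10 alternative settings. Python 3.11.15, pandas 2.3.3 and numpy 2.4.6 were used.

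TPM keeps no read number, so depth is unknown and no counting interval is given. Reads shared by near-identical copies or by overlapping variants may have been divided among them.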

Additional observations from a re-analysis of the deposited data

How the results depend on the processing

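No paired analysis was possible because each group has 1 library. Members meeting the size rule were few, so single genes moved the counts. Where no share of all listed genes stands beside a count, that count cannot be set against the background here. Higher in aged than in young oocytes were 7 members with a minimum of 1 TPM and 7 with no minimum, 9 at 1.5-fold (13.2%, 10.4% and 33.3% of members with enough TPM, against 18.2%, 13.2% and 44.4% of all listed genes), 0 under either scaling of the listed rows, and 1 with summed rows, with curated rows or with the row of highest young TPM, against 2 as reported. Higher in aged-sec than in aged were 1 with a minimum of 1 TPM and 1 with none (Trappc8; 1.89% and 1.49% of members, against 0.556% and 0.393% of genes), against 0; lower were 4 with a minimum of 1 TPM, 4 with none and 4 at 1.5-fold (7.55%, 5.97% and 14.3% of members, against 6.81%, 5.10% and 10.6% of genes), and 0 under either scaling, with summed rows or with curated rows, against 1. Higher in aged-sec than in young were 5 with a minimum of 1 TPM, 5 with none and 5 at 1.5-fold (10%, 7.46% and 21.7% of members, against 14.1%, 9.73% and 33.8% of genes), 3 with a pseudocount of 0.1, 1 with a pseudocount of 1, with summed rows, with curated rows or with the row of highest young TPM, and 0 under either scaling, against 2; lower was 1 (Snx25) with either lower minimum (2% and 1.49% of members, against 1.18% and 0.836% of genes), against 0. Scaling to equal medians and to equal upper quartiles gave median log2 ratios of −0.25 and −0.12 for aged over young, 0.079 and −0.014 for aged-sec over aged, and −0.11 and −0.10 for aged-sec over young, with 17 and 21, 38 and 31, and 19 and 24 of 67 members above 0. Over all listed genes the medians were −0.13 and −0.034, 0.048 and −0.024, and −0.081 and −0.052. The shares of all listed genes above 0 were 35.7% and 45.4%, 55.8% and 47.2%, and 40.8% and 44.1%. These scalings set the listed rows level, and rows were listed for an aged value high against the young one. The curated setting had 50 members. Depth is unknown, and 16 members with a mean under 1 TPM have coarse ratios.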
